A study of Mus musculus with 4 samples.

Results

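Ribosome footprints at translation initiation sites were compared between the 2 libraries of Ltn1 KO neurons, which differed in the RNAi that the neurons received. These are 2 of the 4 libraries of the series, each made from primary cultured cortical neurons of mice, and all 6352 transcripts of the authors' table entered the comparison. LTN1 is an E3 ubiquitin ligase that marks unfinished polypeptides on stalled ribosomes for degradation, a step of ribosome-associated quality control (RQC). TTC3, the target of the RNAi, is a further E3 ubiquitin ligase. Harringtonine holds ribosomes that have just begun translation at the start codon, so that a footprint there reports initiation on that mRNA, and the comparison asks how initiation in neurons without LTN1 differed with TTC3 RNAi. Footprint numbers also follow the amount of the mRNA, which was not measured in these libraries, and in cultures of mixed cells fewer cells of a type and less RNA per cell cannot be told apart.

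Both libraries carried the Ltn1 KO and were given harringtonine at 5 µg/ml for 3 min. The labels disagree on which one received TTC3 RNAi. By its title and characteristics, the library coded LTNTTC received scrambled RNAi and the library coded LTNSC received Ttc3 RNAi, whereas the letters of the codes read the other way round. The libraries are therefore named by their codes, and every difference is LTNTTC minus LTNSC. The WT libraries, coded WTTTC and WTSC, carry the same conflict and had the same harringtonine treatment. The paper reports lentiviral delivery of the RNAi for other experiments on cultured neurons, and the sources used here do not say which part of Ltn1 was removed. Each condition had 1 library, so no difference has a replicate check, and every interval covers counting error only.

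Neither targeted gene settles the labels. The initiation site of Ltn1 (chromosome 16, 87376651 to 87432619 in GRCm38) had 37 reads in LTNSC, or 13.8 RPM (reads scaled to the depth of the whole library), and was listed at 0 in LTNTTC, beside 10 reads in WTSC and 2 in WTTTC. The highest Ltn1 value was thus in a library labelled as a knockout. Ttc3 (chromosome 16, 94370625 to 94469222) had 2 reads in LTNSC and 3 in WTSC and was listed at 0 in both libraries coded TTC. A site outside the removed part does not check a knockout, and RNAi against an mRNA need not empty 1 site. The study's list of differences between Ltn1 KO and WT gives Qdpr and Nkiras2 as reduced in Ltn1 KO. Qdpr had 13.8 RPM in WTSC and 5.99 RPM in LTNSC, but 6.85 RPM in WTTTC and 23.0 RPM in LTNTTC. Nkiras2 had 12.9 RPM and a listed 0, but 6.16 and 14.0 RPM. Id4 and Hspa5 are also on that list. Id4 had 8.11 RPM in WTSC and a listed 0 in LTNSC, but 8.22 RPM in WTTTC and 10.1 RPM in LTNTTC. Hspa5 had 33.9 and 13.5 RPM, but 32.9 and 33.9 RPM. For these genes that list follows the SC-coded libraries, and it does not name their RNAi. The paper gives the list as WT against Ltn1 KO and treats TTC3 RNAi separately. For these genes that goes with the letters of the codes and not with the titles. Mbp, also listed, was lower in the Ltn1 KO library of both codes.

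The RPM values were whole multiples of 1 read, which returned 2673112 reads for LTNSC and 3655827 for LTNTTC, against 2096153 in WTSC and 1460425 in WTTTC. The TTC-coded library was thus the deeper of the pair in Ltn1 KO and the shallower in WT. The listed sites held 6.06% of all reads in LTNSC and 6.70% in LTNTTC. The median transcript had 7 reads in LTNSC and 11 in LTNTTC. Neuron markers were present in both Ltn1 KO libraries, with Tubb3 at 1278 RPM in LTNSC and 1079 RPM in LTNTTC, and the vesicular glutamate transporter Slc17a7 at 43.8 and 32.0 RPM. Of 26 neuron markers, Elavl2, Elavl4 and Rbfox1 were listed at 0 in both.

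Most transcripts differed little between the Ltn1 KO libraries, and more of those that differed were higher in LTNTTC. A transcript was called when its difference of log2(RPM + 1) was at least 2-fold, the exact 95% counting interval of the ratio of RPM lay past 1, and its mean over both libraries was at least 5 RPM. Of 2294 transcripts at that level, 202 were called higher in LTNTTC (8.81%) and 76 were called lower (3.31%). The fold and level rules without the interval gave the same 278 calls, so the interval removed none. Among the called transcripts, 21 were at least 4-fold higher and 13 at least 4-fold lower. The median difference on the log2 scale was 0.04 over all 6352 transcripts and 0.15 over the 2294. Over all transcripts, 51.5% were higher in LTNTTC, 37.1% were lower, and the remaining 729 were listed at 0 in both libraries.

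The surplus on the LTNTTC side depended on the scaling. With both libraries set to the same sum over the listed sites, by a factor of 0.14 on the log2 scale that moves low values less because of the pseudocount, 144 transcripts were called higher and 126 lower, so that the higher calls were 53.3% of all calls in place of 72.7%. With median-of-ratios factors, of 0.16 on that scale, the counts were 135 and 130. Of the 278 calls, 217 remained with the same direction under the same sum and 208 under median-of-ratios factors. Over all transcripts the same sum left 46.1% higher and 42.4% lower. For single transcripts, a difference in either direction is therefore best read against a general shift of this size. The same sum removes any difference in the total over the listed sites by construction, so it cannot show whether initiation as a whole differed. That total was 6.06% of reads in LTNSC and 6.70% in LTNTTC, and the difference was not tested. For Ltn1 KO neurons, the paper reports that TTC3 knockdown restored the footprint number at initiation sites, in normalized counts.

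**Figure D1:**
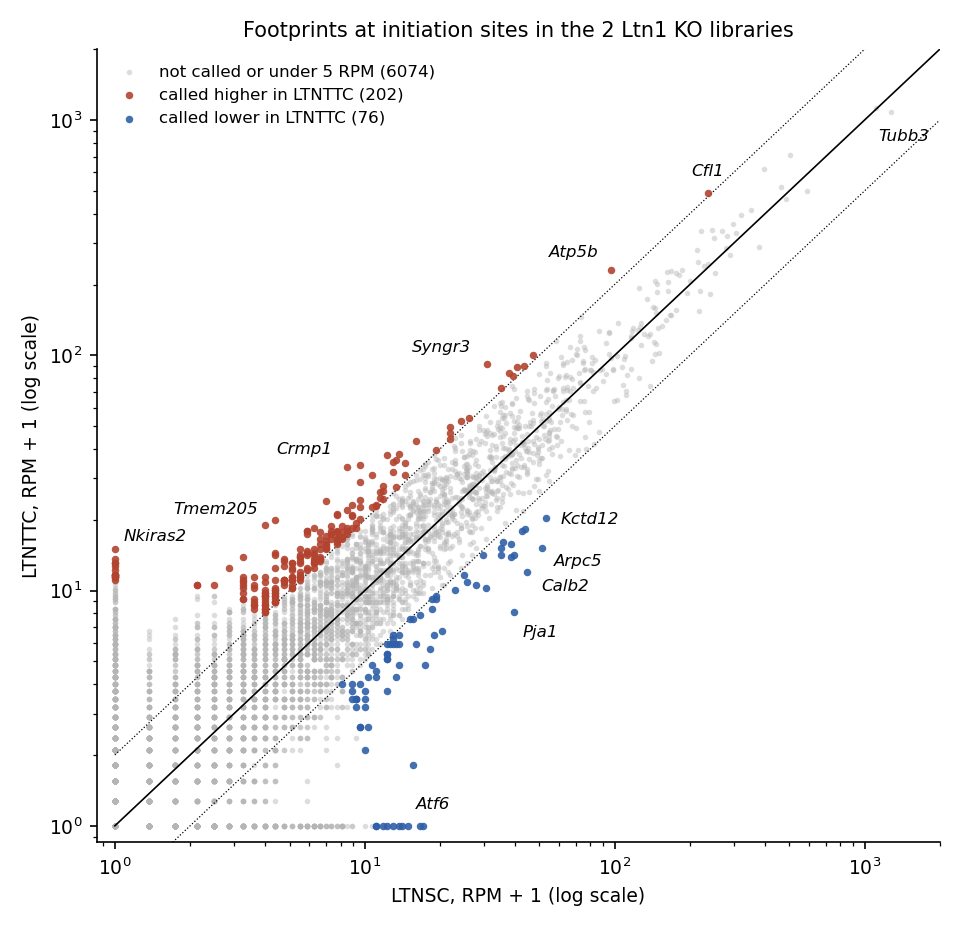
RPM + 1 of 6352 transcripts in LTNSC (horizontal axis) and LTNTTC (vertical axis), both on log scales. The solid line marks equal values and the dotted lines 2-fold differences. The 202 transcripts called higher in LTNTTC and the 76 called lower lie mostly under 50 RPM, and transcripts listed at 0 in LTNSC lie along the left edge and those listed at 0 in LTNTTC along the lower edge. With the same sum, the counts are 144 and 126, and Cfl1 is no longer called.

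Calls were most frequent among transcripts with few reads. They made up 17.0% of 978 transcripts with a mean of 5 to 10 RPM, 11.7% of 631 between 10 and 20 RPM, 6.17% of 470 between 20 and 50 RPM and 4.19% of 215 above 50 RPM. Above 50 RPM, 9 transcripts were called higher in LTNTTC and 0 were called lower. The counting interval of the ratio lay past 1, with no minimum fold, in 760 of the 2294 transcripts (33.1%), of which 529 were higher and 231 lower. The genes of the called transcripts spanned a median of 20.9 kb for higher calls and 23.7 kb for lower calls, beside 23.2 kb for transcripts that were not called.

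The most abundant initiation sites included those of tubulins, actin, calmodulins, the sodium pump subunit gene Atp1b1, Gap43 and Tpt1. The 10 highest sites held 9.46% of the site reads in LTNSC and 9.41% in LTNTTC. The tubulins Tubb3 and Tubb2a, the latter at 1113 and 1129 RPM, differed by less than 1.5-fold between the libraries. Beta-actin, Actb, had 503 RPM in LTNSC and 707 RPM in LTNTTC, a ratio of 1.41 (95% counting interval 1.32 to 1.5). Among these 10, cofilin, Cfl1, which severs actin filaments, was the one called, with 235 RPM in LTNSC and 490 RPM in LTNTTC, a ratio of 2.08 (1.90 to 2.28). It had 248 RPM in WTSC and 388 RPM in WTTTC. Tubb2b was 1.56-fold higher in LTNTTC (1.45 to 1.68), at 396 and 617 RPM. The handling of reads that match several genes is not given in the sources used here, so values of close paralogs such as Tubb2a and Tubb2b, and of ribosomal protein genes with processed copies, are uncertain.

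At a mean level of 10 RPM or more, the 12 most positive differences included genes of the endosome, the endoplasmic reticulum (ER), the axon and inhibitory neurons. Tmem205, a transmembrane protein gene, had 2.99 RPM in LTNSC and 18.1 RPM in LTNTTC, a ratio of 6.03 (2.89 to 14.6). Tspan31, a tetraspanin, had 3.37 and 18.9 RPM (ratio 5.61, 2.79 to 12.8). Crmp1 (chromosome 5, 37242058 to 37292163), which relays semaphorin signals in growing axons, had 7.48 and 32.6 RPM (ratio 4.35, 2.69 to 7.38). These 3 had the largest differences of the group. Endosomal genes followed, with the late endosomal GTPase Rab7 at 8.60 and 33.1 RPM (ratio 3.85, 2.45 to 6.30) and the SNARE protein gene Vti1b at 4.86 and 17.0 RPM (ratio 3.49, 1.90 to 6.91). Qdpr, which regenerates the cofactor tetrahydrobiopterin, had 5.99 and 23.0 RPM (ratio 3.84, 2.23 to 7.02). Vapb, a tether of the ER membrane, had 11.2 and 36.7 RPM (ratio 3.27, 2.19 to 5.03).

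The other 5 were spread over several roles. Gad1, which makes GABA in inhibitory neurons, had 8.60 RPM in LTNSC and 27.9 RPM in LTNTTC (ratio 3.24, 2.05 to 5.34). Pdia6, a disulphide isomerase of the ER, had 4.86 and 16.4 RPM (ratio 3.37, 1.83 to 6.70). Syngr3, a membrane protein of synaptic vesicles, was the most abundant of the 12, at 29.9 and 90.8 RPM (ratio 3.03, 2.37 to 3.92). Mfge8, a secreted protein that astrocytes make, and Tm9sf3 had ratios of 3.49 (1.90 to 6.91) and 3.34 (1.85 to 6.46).

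The 12 most negative differences included ubiquitin, actin, calcium-binding and translation genes. Pja1 (chromosome X, 99465734 to 99471268), a RING-type E3 ubiquitin ligase, had 38.5 RPM in LTNSC and 7.11 RPM in LTNTTC, 5.42-fold lower (3.5 to 8.68). Lrrtm1, an adhesion protein of excitatory synapses, had 16.5 and 3.83 RPM, 4.30-fold lower (2.31 to 8.49). Calb2, which encodes calretinin of a class of interneurons, had 43.4 and 10.9 RPM, 3.97-fold lower (2.75 to 5.83). Actin regulators were represented by Cap2, at 17.2 and 4.65 RPM and 3.70-fold lower (2.08 to 6.89), and by Arpc5, a subunit of the complex that nucleates branched filaments, at 50.1 and 14.2 RPM and 3.52-fold lower (2.54 to 4.95). The translation genes were Eef1a2, the elongation factor form of neurons and muscle, and Rpl14, a protein of the large ribosomal subunit. Eef1a2 had 38.5 and 13.1 RPM, 2.93-fold lower (2.06 to 4.22), and Rpl14 had 37.4 and 12.9 RPM, 2.91-fold lower (2.04 to 4.21).

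The remaining members of this group were Arl6, a small GTPase of cilia, Ccn3, a secreted matrix-associated protein, Tmem145, Pnmal2 and Kctd12, an auxiliary subunit of GABA-B receptors. They were between 2.68-fold and 3.39-fold lower in LTNTTC. All 24 leading transcripts were still called under the same sum and under median-of-ratios factors. The WT pair, which shares no library with the Ltn1 KO pair, showed the same direction for 11 of the 12 positive and for 12 of the 12 negative differences. In that pair 6 of each were also called. Among all transcripts at 5 RPM or more in both pairs, 65.0% had the same direction, as did 153 of the 202 higher and 64 of the 76 lower calls.

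**Figure D2:**
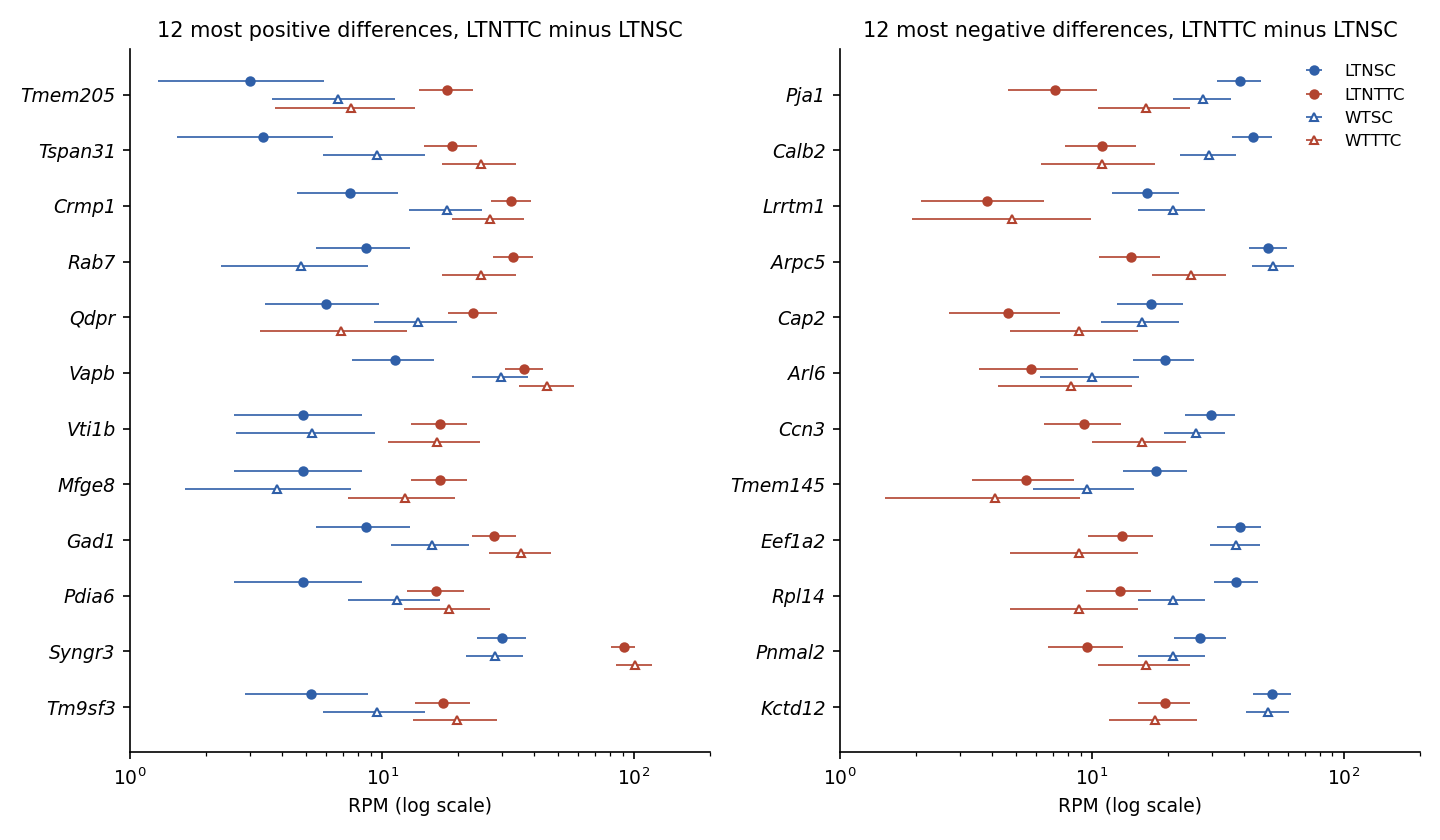
RPM (horizontal axes, log scale) of the 12 most positive and the 12 most negative differences among called transcripts at a mean level of 10 RPM or more, with LTNSC and LTNTTC as filled circles, WTSC and WTTTC as open triangles, and exact Poisson 95% intervals as bars. SC-coded libraries are blue and TTC-coded libraries red. Red lies to the right of blue in the left panel and to the left of it in the right panel for both genotypes, except for Qdpr, whose WT values run the other way.

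Differences between the codes were shared in part by the WT pair. There, 212 of 2361 transcripts were called higher in WTTTC (8.98%) and 129 lower (5.46%). Of the 202 transcripts called higher in LTNTTC, 45 were called higher in WTTTC, which is 22.3% of the calls in Ltn1 KO and 21.2% of those in WT, and 4 were called lower. Of the 76 called lower in LTNTTC, 20 were called lower in WTTTC, 26.3% of the calls in Ltn1 KO and 15.5% of those in WT, and 0 were called higher. The mean in the WT pair reached 5 RPM for 183 of the 202 and for 53 of the 76. The others could not be called there, and the shares of the Ltn1 KO calls include them. Over the 2035 transcripts whose mean reached 5 RPM in both pairs, Pearson's r between the differences was 0.44 and Spearman's rho 0.39. These are descriptions across transcripts, which are not independent replicates and share their libraries. Without transcripts listed at 0 in any of the 4 libraries, Pearson's r was 0.40 over 2002 transcripts. Libraries of one code may share more than the RNAi, and the labels give no batch or date.

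Some leading genes had like values in the libraries of one code, and others did not. Syngr3 had 28.1 RPM in WTSC and 101 RPM in WTTTC, close to its 29.9 and 90.8 RPM in the Ltn1 KO pair. Kctd12 had 50.1 and 17.8 RPM in WT beside 52.0 and 19.4 RPM in Ltn1 KO. Ufc1, the conjugating enzyme of UFMylation, had 11.4 and 2.74 RPM in WT beside 11.2 and 2.74 RPM in Ltn1 KO. In these genes the code, and not the genotype, separated the libraries.

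Other genes stood apart in the Ltn1 KO pair. Qdpr had 13.8 RPM in WTSC and 6.85 RPM in WTTTC, opposite to its direction in Ltn1 KO, and the log2 ratio of the 2 ratios was 2.87 (95% interval from the reads 1.60 to 4.14). Tmem205 had 6.68 and 7.53 RPM in WT, and its log2 ratio of ratios was 2.33 (0.81 to 3.85). For Crmp1, at 18.1 and 26.7 RPM in WT, it was 1.53 (0.60 to 2.46), and for Pja1, at 27.7 and 16.4 RPM, it was -1.68 (-2.60 to -0.77). These genes were chosen for their difference in Ltn1 KO, which the ratio of ratios uses again, so these values are descriptions.

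**Figure D3:**
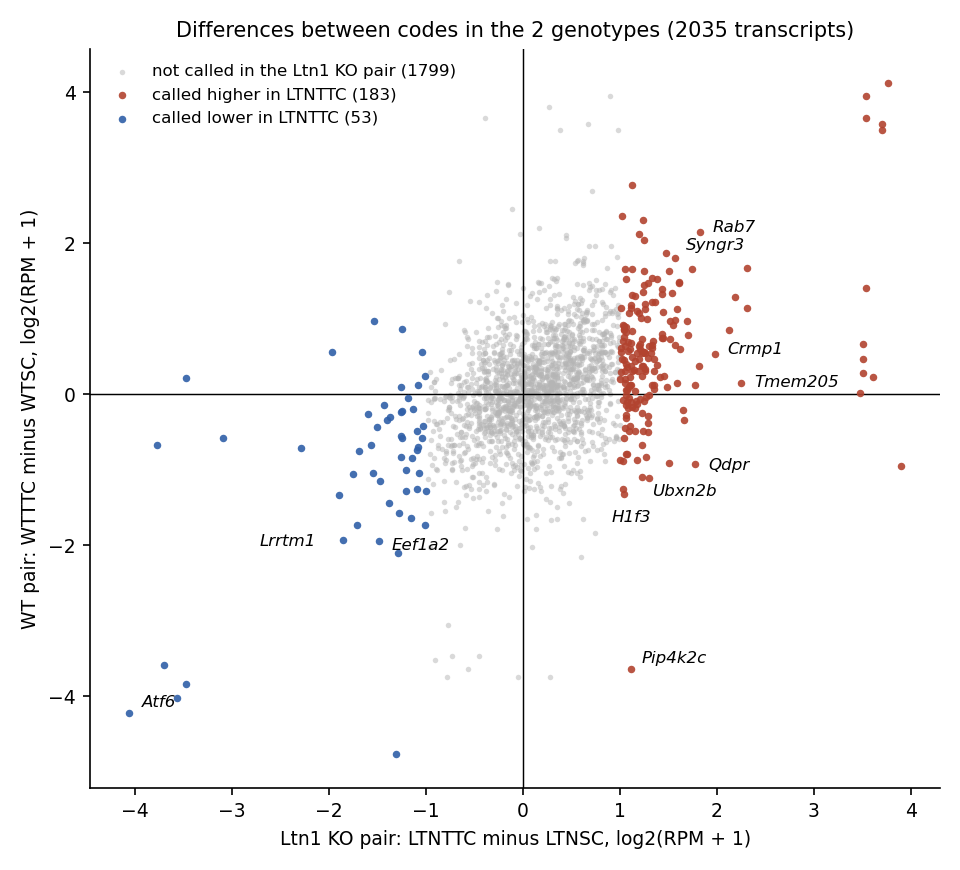
Difference of log2(RPM + 1) between codes in the Ltn1 KO pair (horizontal axis) and the WT pair (vertical axis) for 2035 transcripts whose mean reached 5 RPM in both pairs. Transcripts called in the Ltn1 KO pair are red (higher in LTNTTC) or blue (lower). Most red points lie above 0 and most blue points below 0 on the vertical axis, and points beyond 3 on either axis mostly have a library in which they are listed at 0.

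The gene lists were read against all transcripts, of which 51.5% were higher in LTNTTC with a median difference of 0.04, and against the 2294 transcripts at 5 RPM or more, of which 60.5% were higher with a median of 0.15. Members named below without a call were chosen after their values were seen. With the same sum, the calls of Pkm, Kcnj10, Pabpc1, Cfl1, Mdh1, Napb, Mapre3, Nptxr, Rpl13a, Nefl and Ndufa8 were lost, all higher in LTNTTC, and with median-of-ratios factors those of Limk1 and Rars as well. Calls within lists are those of the RPM as deposited unless stated. They are to be read beside the 8.81% called higher and 3.31% called lower of all transcripts at 5 RPM or more. The matching shares for calls with the same sum are 6.08% higher and 5.32% lower, of 2370 transcripts. With the same sum, 11 lists had fewer higher calls and 10 had more lower calls, the latter being the large and small ribosomal subunits, proteasome, ER translocon, immediate early, GABA, synaptic vesicle, growth cone, Rab and astrocyte lists.

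Translation initiation factors were mostly higher in LTNTTC, under both scalings. Of 38 translation initiation factors, 26 were higher in LTNTTC and 11 lower, with a median of 0.38 as deposited and 0.24 with the same sum. The WT pair had a similar split, with 25 higher in WTTTC and 12 lower and a median of 0.17. Of the 27 at 5 RPM or more, 2 were called higher, 7.41% beside 8.81% of all. These were the poly(A)-binding protein gene Pabpc1, at 5.61 and 12.6 RPM (ratio 2.24, 1.23 to 4.32), and Eif4e2, a cap-binding protein that represses translation, at 4.86 and 13.4 RPM (ratio 2.76, 1.47 to 5.54). Eif4e2 kept its call under both scalings. Several subunits of the initiation factor eIF3, which binds the small ribosomal subunit, had differences below the fold limit, such as Eif3k at 15.7 and 31.5 RPM (ratio 2.0, 1.39 to 2.92). Eif2s1, the phosphorylated subunit of the factor that brings the initiator tRNA, had 18.7 and 10.9 RPM, 1.71-fold lower (1.11 to 2.66).

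Ribosomal protein genes were mixed. For the large cytosolic subunit, 16 of 25 were higher and 9 lower, with a median of 0.28 (0.15 with the same sum), and Rpl13a was called higher, at 46.0 and 99.6 RPM, while Rpl14 was called lower. For the small subunit, 11 of 17 were higher and 5 lower, with a median of 0.22 (0.08 with the same sum). Rps27a, which encodes ubiquitin fused to a ribosomal protein, was called higher, at 10.8 and 25.4 RPM (ratio 2.34, 1.53 to 3.69). Of 56 mitochondrial ribosomal proteins, 32 were higher and 23 lower, with a median of 0.17 that became -0.10 among those at 5 RPM or more. Mrpl17, at 20.9 and 48.4 RPM, and Mrpl40 were called higher. Mrps9 was called lower, at 8.60 and 1.64 RPM. Of 25 aminoacyl-tRNA synthetases, 9 were higher and 15 lower (median -0.03), and the 2 calls, Rars and Mars1, were both higher in LTNTTC. These calls were 13.3% of the 15 synthetases at 5 RPM or more, beside 8.81% of all.

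Genes of RQC showed no common direction. Of 17, 7 were higher and 9 lower in LTNTTC, with a median of -0.03, and 8 reached 5 RPM, of which Eif4e2 was called higher and Ltn1 lower. Each call was 12.5% of the 8, beside 8.81% called higher and 3.31% called lower of all. Nemf, which recruits LTN1 to the stalled large subunit, had 5.99 RPM in LTNSC and 3.01 RPM in LTNTTC, with a ratio whose interval included 1 (0.50, 0.21 to 1.15). Vcp, the ATPase that extracts ubiquitinated chains, had 34.8 and 24.6 RPM, 1.41-fold lower (1.05 to 1.91). Rack1, a protein of the small ribosomal subunit, had 35.5 and 55.0 RPM, 1.55-fold higher (1.21 to 2.0). Of 7 genes of UFMylation, the attachment of the ubiquitin-like UFM1 to proteins such as ribosomal ones at the ER, 5 were higher and 2 lower (median 0.35). Their levels were low, and Ufc1, called lower, was the only one at 5 RPM or more. Ddrgk1, the ER adaptor of the ligase, had 1.12 and 6.29 RPM. In the WT pair 0 of the 7 were higher and 6 were lower, and 4 with reads in WTSC were listed at 0 in WTTTC.

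**Figure D4:**
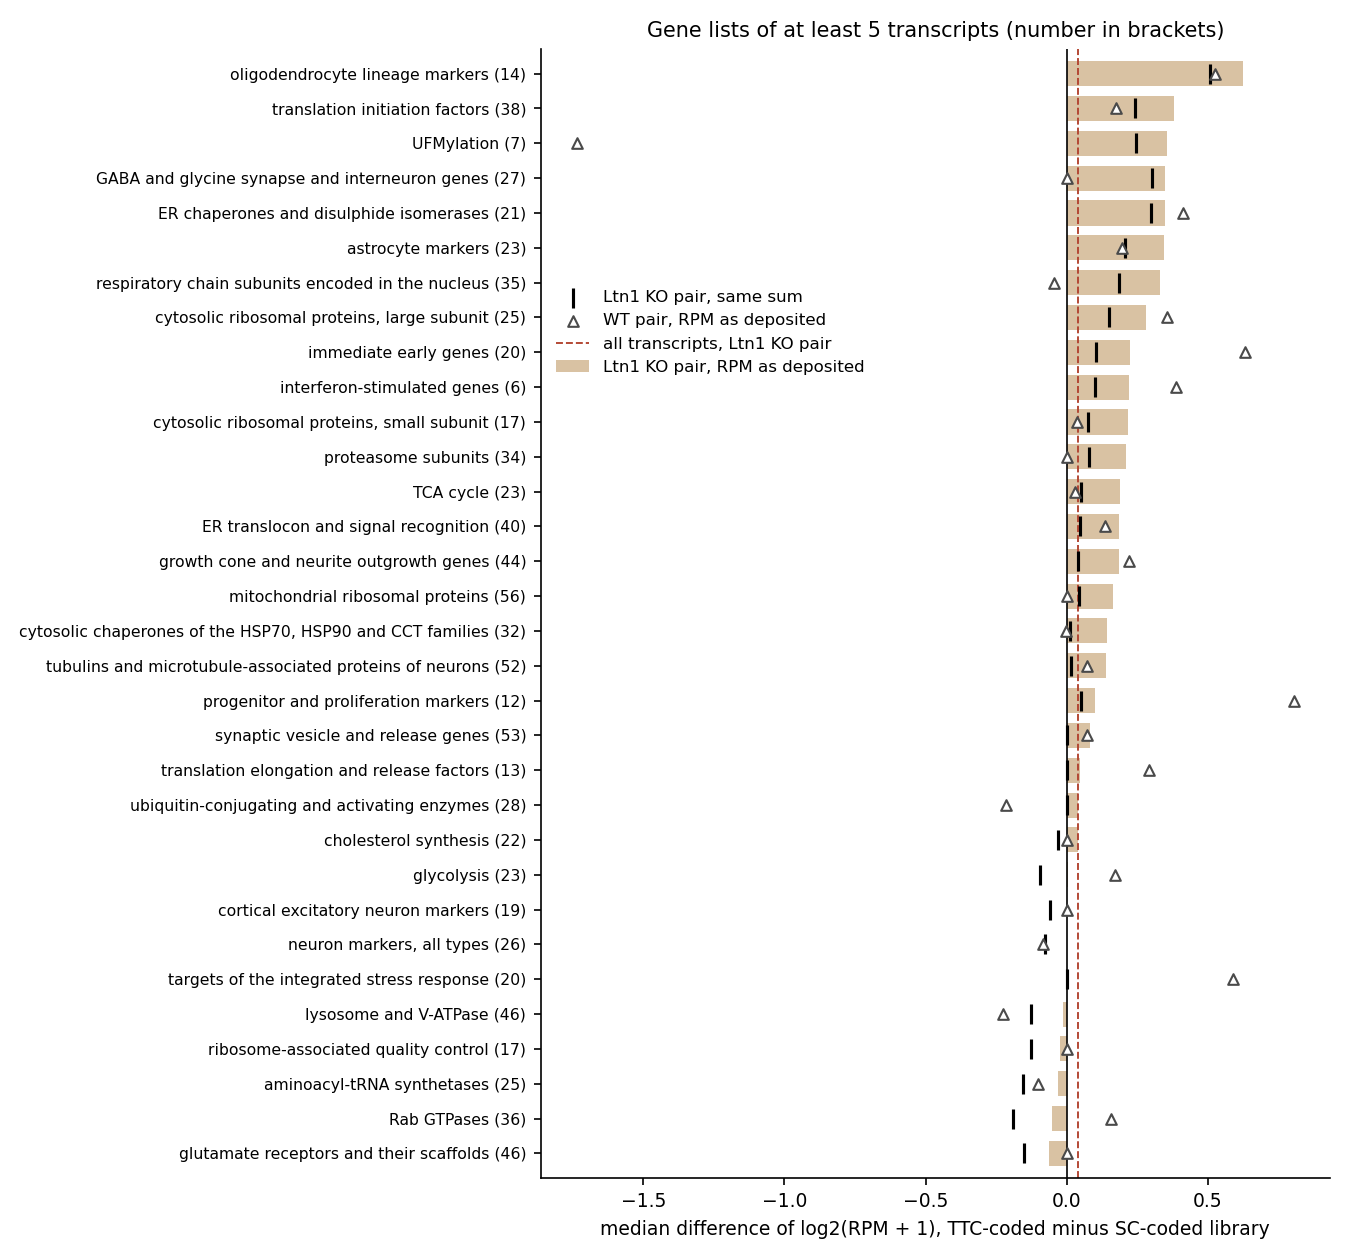
Median difference of log2(RPM + 1), TTC-coded minus SC-coded library (horizontal axis), for each of the 32 gene lists with at least 5 transcripts (vertical axis, number of transcripts in brackets). Bars give the Ltn1 KO pair as deposited, black ticks the same with both libraries set to the same sum, and triangles the WT pair. Medians were above 0 for 24 lists as deposited and for 19 with the same sum. UFMylation lies at 0.35 in the Ltn1 KO pair and at -1.74 in the WT pair.

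Respiratory chain and ER folding genes were mostly higher in LTNTTC, under both scalings. Of 35 respiratory chain subunits encoded in the nucleus, 26 were higher and 8 lower, with a median of 0.33 (0.19 with the same sum). In the WT pair 16 were higher and 18 lower. Atp5b, the catalytic subunit of ATP synthase, had 95.8 RPM in LTNSC and 230 RPM in LTNTTC, a ratio of 2.40 (2.09 to 2.77), beside 157 and 199 RPM in WT. Ndufa8, of complex I, was called higher as deposited, at 7.48 and 17.5 RPM. Its partner Ndufb9 was called lower, with 39 reads in LTNSC and 3 in LTNTTC. The summed level of the list was 1568 RPM in LTNSC and 2037 RPM in LTNTTC. Of 23 genes of the TCA cycle, 16 were higher and 7 lower (median 0.19), but 12 were higher and 11 lower with the same sum (median 0.05). The cytosolic malate dehydrogenase gene Mdh1, the 1 call among 18 at 5 RPM or more (5.56%, beside 8.81% of all), was higher as deposited, at 42.3 and 89.2 RPM beside 61.1 and 55.5 RPM in WT. The glycolysis list, with 12 of 23 higher and 9 lower, had a median of 0.00 that became -0.09 with the same sum (6 higher and 15 lower), with Pkm called higher and the glucose transporter gene Slc2a1 called lower.

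Of 21 ER chaperones and disulphide isomerases, 15 were higher and 6 lower, with a median of 0.35 (0.30 with the same sum). Of the 11 at 5 RPM or more, 3 were called higher (27.3%, beside 8.81% of all) and 0 lower. Hspa5, the main HSP70 chaperone of the ER, had 13.5 RPM in LTNSC and 33.9 RPM in LTNTTC, a ratio of 2.52 (1.73 to 3.76), and 33.9 and 32.9 RPM in WTSC and WTTTC. Its value in LTNSC was thus the one that stood apart from the other 3 libraries. Manf, a small secreted ER protein, had 5.24 and 14.0 RPM, and Pdia6 is given above. Pdia3 had 16.1 and 30.1 RPM, a ratio of 1.87 (1.30 to 2.73) that was not called. Of 20 targets of the integrated stress response, 7 were higher and 8 lower, and 0 of the 4 at 5 RPM or more were called. Of 34 proteasome subunits, 25 were higher and 8 lower (median 0.21, or 0.08 with the same sum), and 0 of the 28 at 5 RPM or more were called as deposited, or 1 lower with the same sum, with differences between -0.93 and 0.94 in the whole list.

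Genes of the neuronal cytoskeleton and of synapses included calls in both directions. Of 52 tubulins and microtubule-associated proteins, 32 were higher and 19 lower, with a median of 0.14 (0.01 with the same sum), and of the 36 at 5 RPM or more 3 were called higher (8.33%, beside 8.81% of all) and 2 lower (5.56%, beside 3.31% of all). The split was 26 higher and 25 lower with the same sum. Tbcb, a tubulin folding cofactor, had 2.24 and 9.30 RPM, a ratio of 4.14 (1.72 to 12.1), and Tuba4a, an alpha-tubulin of mature neurons, had 34.8 and 15.0 RPM, 2.31-fold lower (1.64 to 3.29). The growth cone list had 23 of 44 higher and 18 lower, and Crmp1, Cfl1 and the cofilin kinase gene Limk1 were called higher among 21 at 5 RPM or more (14.3%, beside 8.81% of all). There were 2 higher calls and 1 lower call with the same sum. Glutamate receptors and their scaffolds had 15 of 46 higher and 24 lower (median -0.06, or -0.15 with the same sum). Gria1 and Gria2, of the AMPA receptor, had ratios of 0.85 with intervals that included 1. Of 53 synaptic vesicle genes, 29 were higher and 21 lower as deposited, and 24 higher and 26 lower with the same sum (median 0). Syngr3 and Napb, which acts in SNARE disassembly, were called higher as deposited, and with the same sum 1 member was called in each direction.

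Genes of inhibitory neurons and synapses also held calls in both directions. Of 27 genes of GABA and glycine synapses and interneurons, 16 were higher and 11 lower, with a median of 0.35 as deposited and 0.30 with the same sum, but 0.04 among those at 5 RPM or more. Gad2, the second gene of GABA synthesis, had 10.1 and 20.8 RPM (ratio 2.06, 1.31 to 3.32) and was not called, beside the call of Gad1. Gabrb1, a beta subunit of GABA-A receptors, had 13.1 and 22.2 RPM (ratio 1.69, 1.13 to 2.59). Calb2 was called lower. In the WT pair Gad1 was called higher, at 15.7 and 35.6 RPM, and Calb2 was called lower.

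Further lists covered protein entry into the ER, cholesterol synthesis and ubiquitin conjugation. Of 40 genes of the ER translocon and signal recognition, 23 were higher and 16 lower (median 0.19, or 0.05 with the same sum). Spcs3, a subunit of signal peptidase, was called lower, at 42.6 RPM in LTNSC and 17.2 RPM in LTNTTC and 2.47-fold (1.80 to 3.42), as was the glycosylation gene Tusc3. With the same sum 5 members were called lower and 2 higher, against 2 and 1 as deposited. Ubl4a, which acts in the insertion of tail-anchored proteins, was called higher, at 4.49 and 12.3 RPM (ratio 2.74, 1.43 to 5.69). Among 22 genes of cholesterol synthesis, 11 were higher and 10 lower, with a median of 0.04 that became -0.03 with the same sum. Its 2 calls, Hsd17b7 at 5.99 and 15.3 RPM and lanosterol synthase, Lss, at 3.37 and 9.30 RPM, were both higher. These calls were 12.5% of the 16 members at 5 RPM or more, beside 8.81% of all. Of 28 ubiquitin-conjugating and activating enzymes, 14 were higher and 12 lower, and Ube2e1 was called higher, at 5.99 and 14.8 RPM, and Ube2g2, an enzyme of ER-associated degradation, lower, with 32 reads in LTNSC and 18 in LTNTTC.

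Endosomal and lysosomal lists lay slightly below 0. Of 46 lysosome and V-ATPase genes, 21 were higher and 23 lower (median -0.01, or -0.13 with the same sum). Of 36 Rab GTPases, 17 were higher and 19 lower (median -0.05, or -0.19 with the same sum), with Rab7 as the 1 call, joined by 1 lower call with the same sum. Of 32 cytosolic chaperones, 19 were higher and 12 lower (median 0.14), and 17 and 14 with the same sum (median 0.01). The 13 elongation and release factors had 7 higher and 4 lower, with Eef1a1, the widely expressed form, at 12.7 and 23.5 RPM while Eef1a2 was called lower. Immediate early genes (11 of 20 higher, 5 lower) and interferon-stimulated genes (4 of 6 higher, 2 lower) had 0 calls as deposited, and with the same sum 1 immediate early gene was called lower. Cortical excitatory neuron markers, with 8 of 19 higher and 9 lower, had 0 calls, and of 12 progenitor and proliferation markers, 6 higher and 5 lower, Hes5 was called higher, at 5.61 and 14.8 RPM.

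Markers of other cell types moved with the library as well. Of 14 markers of the oligodendrocyte lineage, 9 were higher in LTNTTC and 1 lower, with a median of 0.62 (0.51 with the same sum), and their summed level was 40.0 RPM in LTNSC and 94.4 RPM in LTNTTC. The WT pair differed in the same direction, with 10 higher and 2 lower and sums of 68.7 RPM in WTSC and 157 RPM in WTTTC. Mbp, Gpr17 and Cspg4 were among those listed at 0 in LTNSC, and Bcas1, Enpp6, Cldn11 and Ugt8a in both libraries. Of 23 astrocyte markers, 15 were higher and 5 lower (median 0.34, or 0.21 with the same sum), and their summed level was 407 RPM in LTNSC and 483 RPM in LTNTTC. In the WT pair 17 were higher and 5 lower, with sums of 438 RPM in WTSC and 505 RPM in WTTTC. Mfge8, Id4 and the potassium channel gene Kcnj10, at 6.73 and 14.8 RPM, were called higher, Id4 against a listed 0. These calls were 23.1% of the 13 astrocyte markers at 5 RPM or more, beside 8.81% of all. The glutamate transporter gene Slc1a2 of astrocytes had 23.2 and 44.9 RPM, while Glul and Sparcl1 had intervals that included 1. The summed neuron markers had 3361 RPM in LTNSC and 3248 RPM in LTNTTC, with 11 of 26 higher and 12 lower, and the RNA-binding protein gene Elavl3 and the neurofilament gene Nefl were called higher. The microglia list had 2 genes, summing to 17.2 and 10.7 RPM. The part of cell composition in the differences above was not tested.

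Transcripts listed at 0 in one Ltn1 KO library formed a group of their own. Of 2307 transcripts with at least 20 reads in LTNTTC, 66 were listed at 0 in LTNSC, whereas 5 had 1 or 2 reads there. Of 1653 transcripts with at least 20 reads in LTNSC, 15 were listed at 0 in LTNTTC and 0 had 1 or 2 reads. A listed 0 thus did not continue the run of low counts, and it may not stand for an absent footprint. Rps10, a protein of the small ribosomal subunit, was listed at 0 in all 4 libraries. These transcripts accounted for 14 of the 202 higher calls and 10 of the 76 lower calls, and without any transcript listed at 0 in a Ltn1 KO library the counts were 188 and 66.

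**Figure D5:**
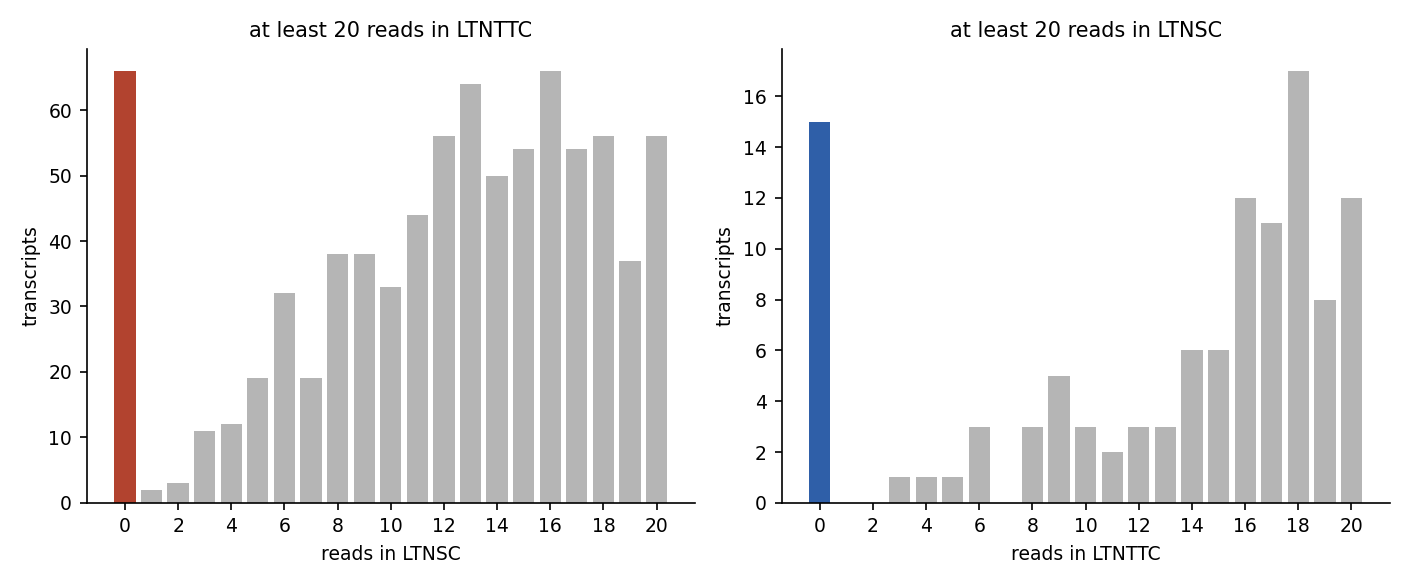
Number of transcripts (vertical axes) by reads, from 0 to 20, in LTNSC for transcripts with at least 20 reads in LTNTTC (left) and in LTNTTC for transcripts with at least 20 reads in LTNSC (right). The coloured bars at 0 reads hold 66 and 15 transcripts, beside 5 and 0 at 1 or 2 reads.

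The genes at a listed 0 were varied. Listed at 0 in LTNSC were Nkiras2, with 51 reads in LTNTTC, the tetraspanin gene Cd9 with 43, the myelin gene Mbp with 38, the transcription regulator gene Id4 with 37 and the dynein heavy chain gene Dync1h1 with 31. Each of these 5 had reads in both WT libraries. Of the 66, 49 were listed at 0 in WTSC too, of which 31 had reads in WTTTC. Prelid1, Gga2, Sgpl1, Fam210b and Gpr17 had at least 20 reads in both libraries coded TTC and were listed at 0 in both coded SC. The reverse held for Atf6, a transcription factor activated by ER stress, with 42 reads in LTNSC and 37 in WTSC, and for Nsun4, Cfap97, Grk3, Mchr1, Rnh1 and Pds5a. A further 18 of the 66, among them G6pdx, the first enzyme of the pentose phosphate pathway, with 30 reads, and Tom1 with 36, were listed at 0 in every library but LTNTTC. Among transcripts with at least 20 reads in LTNSC, those listed at 0 in every other library were Scrn3, with 26 reads, and Alg6, with 21.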

How the data were processed

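Footprints of harringtonine-treated primary cultured cortical neurons were measured by the authors in 4 libraries, 1 for each genotype and RNAi, and the 2 Ltn1 KO libraries were compared here. The deposited values are RPM at initiation sites, which the authors scaled to library depth. Per the labels, Bowtie, SAMtools, bedtools and the build GRCm38/mm10 were used, without versions. The counted window, the annotation and the choice of transcripts are not given in the sources used here. The values came out as whole reads in 100% of cases, with a tolerance of 1e-06, so reads were recovered. One read equals 0.374 RPM in LTNSC and 0.274 RPM in LTNTTC.

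Symbols came from the study's list of transcripts, read from page images, for 6351 of 6352 transcripts, after 38 identifiers had been mended. Symbols absent from RefSeq (122) were not named. Some genes are not reported here. Positions are those of RefSeq genes of GRCm38.

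Differences were taken on the log2(RPM + 1) scale, with a pseudocount of 1 RPM, which understates those of low transcripts. Ratios of RPM carry exact Clopper-Pearson 95% intervals from reads given library totals. The log2 ratio of ratios carries a Wald interval on reads + 0.5. No replicate test was possible and no p-value is given. Reads without molecular identifiers are not independent molecules.

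The comparison, the 33 gene lists and the rules were chosen with earlier results of these data known. Named genes were Ltn1 and Ttc3, the 12 most positive and 12 most negative differences among calls at a mean of at least 10 RPM, up to 4 called members of each list, and transcripts listed at 0 in 1 Ltn1 KO library with at least 20 reads in the other. Alternatives were other level filters, a pseudocount of 0.1 RPM, a 1.5-fold limit, the fold alone, a binomial test on reads, both rescalings, 1 transcript per gene and, added after the data were seen, leaving out listed zeros. The software was matplotlib 3.10.9, scipy 1.17.1, numpy 2.4.6 and pandas 2.3.3 under Python 3.11.15.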

Additional observations from a re-analysis of the deposited data

Results flagged for a closer look

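Among the 202 transcripts called higher in LTNTTC than in LTNSC, 4 were called lower in WTTTC than in WTSC, opposite in direction between the genotypes. Of the 202, 183 had a mean of at least 5 RPM in the WT pair. Of all 2361 transcripts at that level in the WT pair, 5.46% were called lower, so opposite calls were not more frequent than lower calls in general. Pip4k2c, a lipid kinase gene, differed by 1.12 on the log2(RPM + 1) scale in Ltn1 KO, at 3.37 RPM in LTNSC and 8.48 RPM in LTNTTC, and had 11.4 RPM in WTSC and a listed 0 in WTTTC. Trib2, a pseudokinase gene, differed by 1.03, at 3.37 and 7.93 RPM, against 12.9 and 4.79 RPM in WT. Ubxn2b, a cofactor of the ATPase VCP, differed by 1.23, at 3.74 and 10.1 RPM, against 15.7 and 6.85 RPM in WT. The linker histone gene H1f3 differed by 1.04, at 10.1 and 21.9 RPM, against 32.4 and 12.3 RPM in WT. With the same sum, Trib2 and H1f3 were no longer called in Ltn1 KO, and with median-of-ratios factors Pip4k2c was not called either, which leaves Ubxn2b as the 1 call under both. With 1 library for each condition, the difference between the genotypes was not tested over replicates. The intervals of the log2 ratio of ratios, which cover counting error only, were 2.20 to 10.5 for Pip4k2c, 0.96 to 4.11 for Trib2, 1.13 to 3.94 for Ubxn2b and 1.5 to 3.43 for H1f3.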

How the results depend on the processing

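In place of 202 higher and 76 lower calls, there were 83 and 29 at a mean level of 10 RPM or more, 586 and 316 with no filter on level, 425 and 173 with a 1.5-fold limit, and 397 and 158 with a binomial test of the reads (two-sided, exact and conditional on their sum) at a Benjamini-Hochberg adjusted p of 0.05, which kept 261 of the 278 calls. The lower calls were 126 with the same sum and 130 with median-of-ratios factors, and the higher calls stayed within 1.5 times the count, at 144 and 135. Counts with a pseudocount of 0.1 RPM (240 and 94), without listed zeros (188 and 66), with the fold alone and with 1 transcript per gene (202 and 76 each) were also within 1.5 times. The median difference over all transcripts, 0.04, was 0.14 at 10 RPM or more, 0.15 at 5 RPM or more, 0.14 without listed zeros, and 0 under both rescalings. Median-of-ratios factors centre the transcripts with reads in both libraries, so a median near 0 there follows from the scaling. Median differences of 32 gene lists changed sign in 4 lists at 5 RPM or more, in 2 with the same sum and in 3 with median-of-ratios factors. Of 67 named genes, 11 lost the call with the same sum and 13 with median-of-ratios factors, and 0 changed direction. The cause of these shifts beyond the change of filter or scale was not tested.

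No paired analysis was possible because the Ltn1 KO comparison has 1 library on each side. A fit of genotype and code over all 4 libraries was not run. With 1 library in each condition, leaving out a library gives no value. Depth limits the comparison: the median transcript had 7 reads in LTNSC and 11 in LTNTTC.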
